A study of Rattus norvegicus with 28 samples.

Results

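The response of rat microglia to the envelope protein of human endogenous retrovirus W (ENV) was compared with the response of rat astrocytes to the same protein. The comparison used the 14 ENV and buffer libraries of the series, out of 28 libraries in all: 3 of microglia with ENV, 3 of microglia with buffer, 4 of astrocytes with ENV and 4 of astrocytes with buffer. For each gene symbol listed in the files of both cell types, the change from buffer to ENV in astrocytes was subtracted from the change in microglia, so a positive difference means a response that was higher in microglia. Cells of all groups were taken from Wistar rat cortex on postnatal day 1 and had spent 10 days in flasks in medium with 10% fetal calf serum. Microglia were shaken off, sorted with magnetic beads against CD11b/c and given ENV at 1 µg/ml or its buffer 1 day after isolation, whereas astrocytes received the same dose 3 days after isolation. Messenger RNA was captured from 150 ng of total RNA. The sources used here do not give the length of the stimulation or say whether replicates were separate cultures, so p-values reflect variation among these libraries only, and part of it may be technical.

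ENV is a surface protein encoded by a retroviral element of the human genome and is known to act on Toll-like receptor 4 (TLR4), the receptor for bacterial lipopolysaccharide. TLR4 signals through adaptor proteins to the transcription factor NF-kB, which drives cytokine and chemokine genes and its own inhibitors, and to interferon regulatory factors, which drive type I interferon and the interferon-stimulated genes. Microglia are the resident macrophages of the brain, while astrocytes support neurons metabolically, take up glutamate and also react to inflammatory signals.

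The labelled cell types carried their defining markers, and the libraries of both also held markers of other cell types. Transcript levels are given as CPM, counts scaled to a common library total. The summed level of 17 microglial and macrophage markers was 14294 to 18952 CPM in the microglial libraries. In the astrocyte libraries it was 1050, 129, 618 and 965 CPM with buffer (replicates 1 to 4) and 463, 67.1, 351 and 547 CPM with ENV, lowest in both libraries of replicate 2. The ENV mean was 2.33% of that in ENV-treated microglia. The 15 astrocyte markers summed to 11313 to 17883 CPM with buffer and 6352 to 10769 CPM with ENV in astrocytes, groups that did not overlap (exact permutation test, 2-sided, p = 0.0286, the smallest that 4 against 4 can give). In microglia the same sum was 1470 to 1765 CPM with buffer and 2799 to 3398 CPM with ENV (exact permutation p = 0.1, the smallest that 3 against 3 can give), most of it from the glutamine synthetase gene Glul, which averaged 2877 CPM with ENV. Fibroblast and mural cell markers reached 2843 to 11144 CPM in buffer-treated and 1731.5 to 3524 CPM in ENV-treated astrocytes (exact permutation p = 0.0857), against at most 15.9 CPM in microglia. Markers of granulocytes and blood monocytes went from 2.14 to 8.89 CPM with buffer to 195 to 397 CPM with ENV in microglia (exact permutation p = 0.1), nearly all of it Plac8, and stayed at or under 3.97 CPM in astrocytes. Neuronal markers in astrocytes summed to 558 to 850.2 CPM with buffer and 277 to 463 CPM with ENV (exact permutation p = 0.0286). Oligodendrocyte lineage markers in microglia summed to 568 to 582 CPM with buffer and 655 to 796 CPM with ENV (exact permutation p = 0.1). In astrocytes they lay between 306 and 557 CPM. Endothelial markers in microglia summed to 70.9 to 83.2 CPM with buffer and 129 to 214 CPM with ENV (exact permutation p = 0.1), and in astrocytes to at most 24.3 CPM. In bulk libraries a change in the number of cells of a type and a change in the RNA per cell cannot be told apart.

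**Figure D1:**
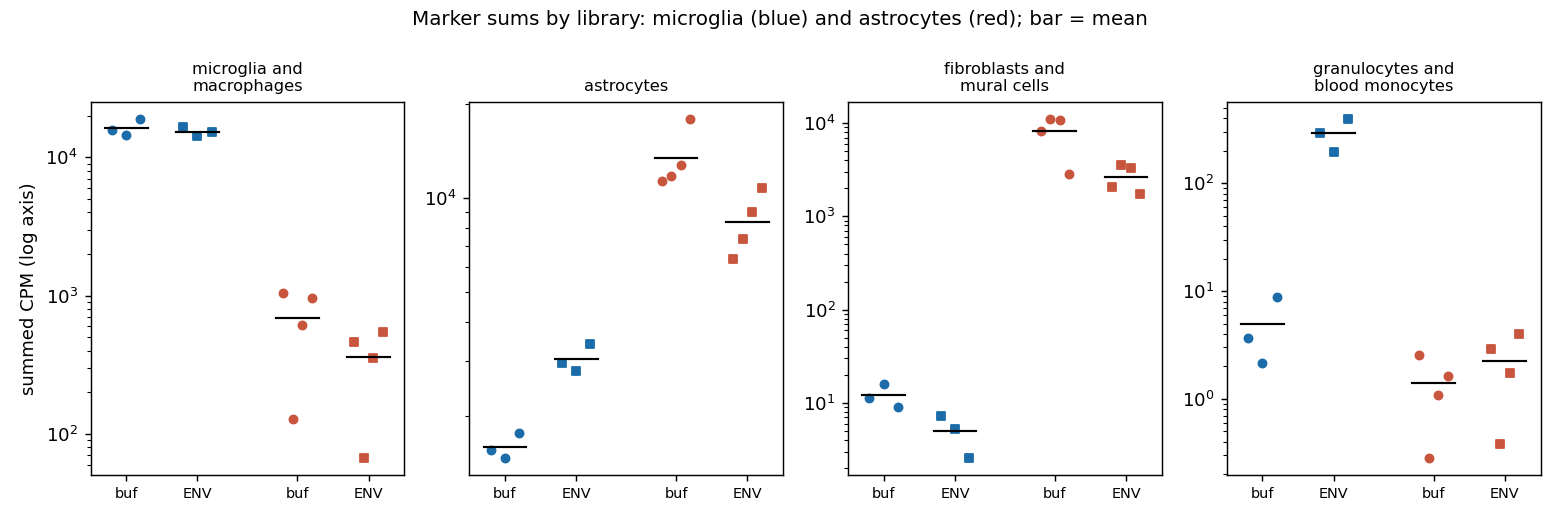
Summed CPM (log axis) of markers of 4 cell classes in each library, with buffer (circles) and ENV (squares), in microglia (blue) and astrocytes (red); bars are group means. Microglial markers in astrocyte cultures lay between 67.1 and 1050 CPM, and fibroblast markers there had a lower mean with ENV (2645 CPM) than with buffer (8215 CPM).

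Library totals were 26513999 to 30640591 counts in microglia and 25562407 to 35326938 in astrocytes, and the detection limit (3 counts where 0 were seen, for counting error only) lay at 0.0849 to 0.117 CPM. Both file sets listed 15344 symbols, of which 13382 passed the filter on low counts. The astrocyte files listed no symbol without a count in these 8 libraries, so genes silent in astrocytes lie outside the comparison. The first principal component of the 14 libraries (80.98% of the variance) separated the cell types and the second (7.908%) separated ENV from buffer in both.

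The responses of the 2 cell types differed for 1998 of the 13382 genes (14.9%; edgeR quasi-likelihood test of the interaction, Benjamini-Hochberg adjusted p under 0.05). The response was higher in microglia for 919 genes (6.87%) and lower for 1079 (8.06%). The balance turned with DESeq2 size factors (1062 higher, 898 lower) and the DESeq2 Wald test (1514 and 1362). It also turned without astrocyte buffer replicate 2 (961 and 642), astrocyte ENV replicate 2 (1056 and 855) or both (927 and 693). With library totals alone as the scale the split was 641 higher and 1886 lower, and the median difference over all genes moved from -0.06 to -0.24. With the replicate number as a block, 3314 genes were called (1547 higher, 1767 lower), among them 1970 of the 1998. List counts with the block in later paragraphs are to be set beside these larger totals, not beside the shares above. In microglia alone 1872 genes rose (14%) and 2133 fell (15.9%), or 1285 and 3145 with library totals alone. Falls also stayed ahead with the DESeq2 Wald test (2289 rose, 2406 fell) and the block (2480 and 3018). Rises led when microglia were fitted without the astrocyte libraries (2084 and 1888), and barely with DESeq2 size factors (1982 and 1973). They also led without astrocyte buffer replicate 2 (2095 and 1678), astrocyte ENV replicate 2 (2173 and 1783) or both (2183 and 1740). The order in microglia thus depended on the scale and on the astrocyte libraries in the fit. In astrocytes 1254 rose (9.37%) and 1286 fell (9.61%), 4001 in all with the block.

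Most called differences belonged to genes whose response was called in 1 cell type only. A response that was not called is not thereby absent. With the block, 5498 responses were called in microglia (against 4005) and 4001 in astrocytes (against 2540). Of the genes with a called difference, 568 rose in microglia without a called response in astrocytes, and 675 fell. Another 182 rose in astrocytes without a called response in microglia, and 161 fell. Genes that moved the same way in both numbered 900, which is 22.5% of the microglial and 35.4% of the astrocyte calls, and 153 of them differed in size. Genes called in opposite directions numbered 155, or 3.87% of the microglial and 6.10% of the astrocyte calls: 76 rose in microglia and fell in astrocytes, and 79 did the reverse. The split was 48 and 121 with library totals alone, 88 and 64 with DESeq2 size factors and 154 and 102 with the DESeq2 Wald test. The count was 89 without astrocyte buffer replicate 3, 100 without astrocyte buffer replicate 1 and 368 with the block. Across genes the responses had a Pearson correlation of 0.41 and a Spearman correlation of 0.32, given as a description because genes are not independent replicates and share each library's normalization.

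**Figure D2:**
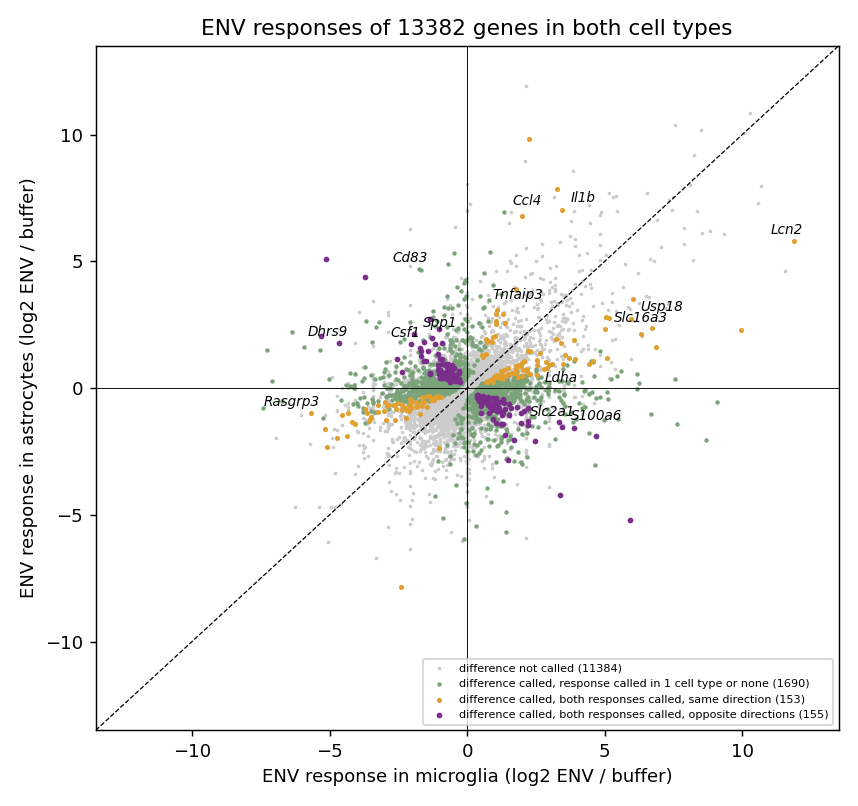
Log2 ratio of ENV to buffer in microglia (x axis) and astrocytes (y axis) for 13382 genes, coloured by whether the difference between cell types was called and how; the dashed line marks equal responses. Genes of opposite direction (155, purple) fill the upper left and lower right corners, with Slc2a1 and S100a6 at the lower right and Csf1, Spp1 and Dhrs9 at the upper left.

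Genes that moved in opposite directions included the main glucose transporter and the growth factor on which microglia depend. Slc2a1, which encodes the glucose transporter GLUT1, stood at 94.5, 87.3 and 57.5 CPM in buffer-treated and 370.4, 224 and 228 CPM in ENV-treated microglia. In astrocytes it stood at 715, 849.5, 764 and 351 CPM with buffer and 256, 364, 215 and 213 CPM with ENV. The microglial groups did not overlap, and in astrocytes buffer replicate 4 and ENV replicate 2 overlapped. Groups apart in the cell type of the larger response were a condition for naming genes by class, here and below. Slc2a1 rose by 1.96 ± 0.35 (log2, SE) in microglia and its log2 change in astrocytes was -1.39 ± 0.30, a difference of 3.35 ± 0.46 (adjusted p = 0.000626). Buffer replicate 4 also had the lowest fibroblast marker sum of the buffer-treated astrocytes (2843 CPM, against 8186 to 11144 CPM), and the part of those cells in the fall of Slc2a1 was not tested.

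Csf1, the colony-stimulating factor whose receptor maintains microglia, went the other way. Its level was 124, 106 and 52.1 CPM with buffer and 26.2, 17.9 and 16.7 CPM with ENV in microglia. In astrocytes it was 377, 362, 435 and 509 CPM with buffer and 1224, 893, 1764 and 1717 CPM with ENV. Neither cell type's groups overlapped, and the difference between the responses was -3.76 ± 0.43 on the log2 scale (microglia -2.03, astrocytes 1.73, adjusted p = 0.000180).

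Spp1 encodes osteopontin, a secreted matrix protein known as a marker of activated microglia. It was measured at 5452, 6958 and 2876 CPM in microglia with buffer and 1018, 1515 and 987 CPM with ENV. In astrocyte cultures it was at 79.2, 35.8, 38.7 and 86.2 CPM with buffer and 529, 143, 136 and 258 CPM with ENV. All ENV libraries were below all buffer libraries in microglia and above them in astrocytes (difference -4.08 ± 0.69, adjusted p = 0.00222). The microglial marker sum of the astrocyte cultures averaged 691 CPM with buffer and 357 CPM with ENV. The part of the microglia in these cultures in the rise of Spp1 was not tested.

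S100a6, a small calcium-binding protein gene, was at 1.55, 1.16 and 0.775 CPM in microglia with buffer and 11.1, 16.8 and 6.23 CPM with ENV. In astrocytes it was at 282, 295, 382 and 300.3 CPM with buffer and 86.8, 153, 102 and 97.4 CPM with ENV. The groups of both cell types were apart, and the difference was 5.00 ± 0.45 (adjusted p = 4.00e-05). Dhrs9, a retinol dehydrogenase gene, fell by 4.66 on the log2 scale in microglia and rose by 1.78 in astrocytes, a difference of -6.44 ± 0.81 (adjusted p = 0.000357).

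By the naming rule, the others of opposite direction with the largest differences were Fam124a (5.47), the secretory granule protein gene Scg2 (4.67), Ipcef1 (3.50) and Cd109 (3.21), which rose in microglia. Nrep (-4.07), the phospholipid transporter gene Abcb4 (-3.37) and Gdf15 (-3.31), a stress-induced cytokine of the TGF-beta superfamily, rose in astrocytes. Each of these 12 genes kept its direction in all 25 alternative settings, and Scg2 alone lost its call in any (adjusted p = 0.098 with all 28 libraries in the fit). The plot by library shows that levels as well as responses differed: Scg2 and S100a6 stayed far higher in astrocytes than in microglia after ENV, and Spp1 stayed higher in microglia.

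**Figure D3:**
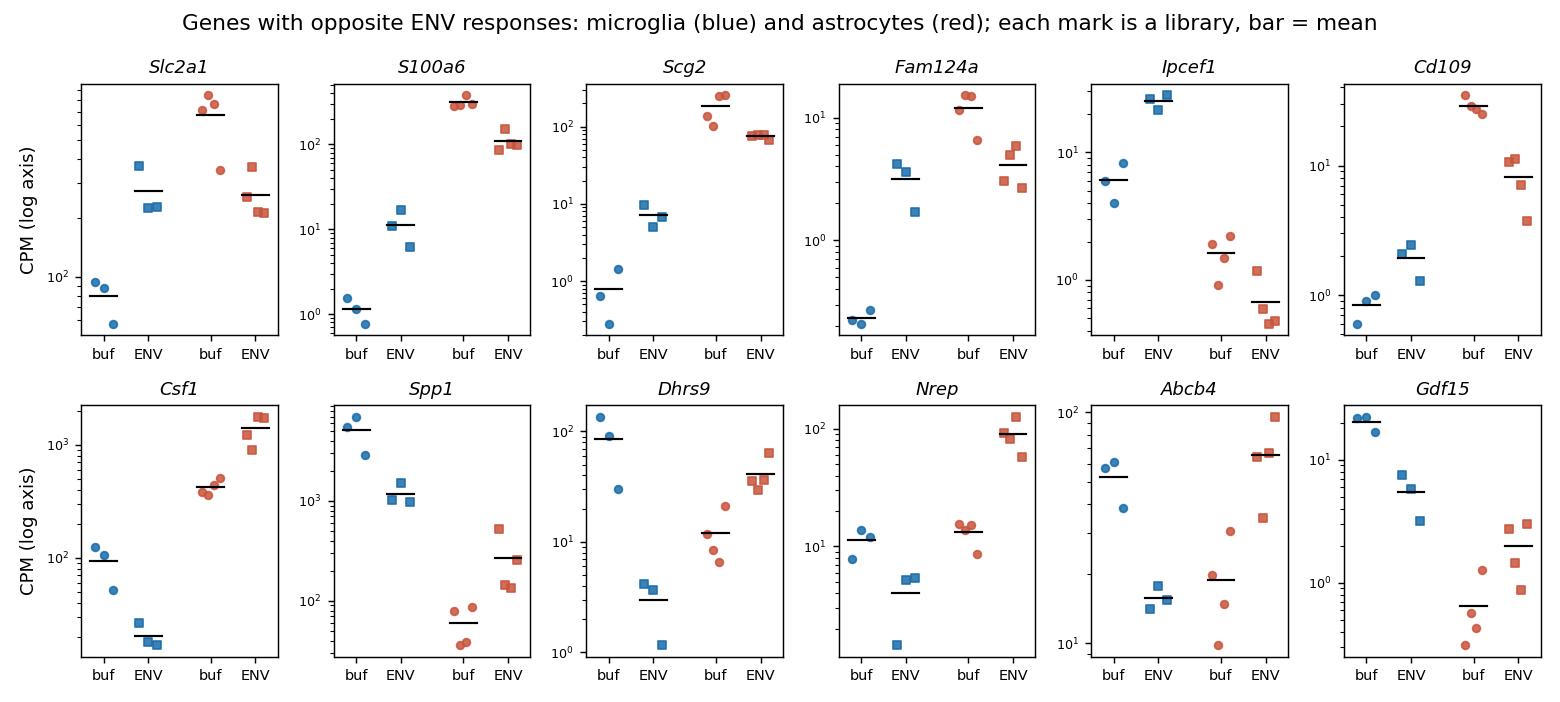
CPM (log axes) of 12 genes called in opposite directions, by library, with buffer (circles) and ENV (squares) in microglia (blue, 3 per group) and astrocytes (red, 4 per group); bars are means. In the upper row ENV means are above buffer means in microglia and below them in astrocytes, as in Slc2a1 (79.8 to 274 and 669.8 to 262 CPM), and in the lower row the reverse.

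Transcripts of glycolysis rose in microglia and were centred near 0 in astrocytes. Of 15 tested members of the list for glycolysis and lactate, 12 had a higher response in microglia and 1 a lower one (median difference 1.71, against -0.06 over all genes). Over all genes the shares were 6.87% and 8.06%. In microglia 12 members rose and 1 fell (median 1.72); in astrocytes 2 rose and 2 fell (median -0.04), against 9.37% and 9.61% of all genes. Ldha, the lactate dehydrogenase subunit that favours lactate production, stood at 345, 322 and 403 CPM with buffer and 1712, 1655 and 1969 CPM with ENV in microglia. In astrocytes it stood at 855, 830.0, 907 and 817 CPM with buffer and 869.8, 801, 787 and 861 CPM with ENV. The astrocyte groups overlapped and the microglial groups lay far apart (difference 2.54 ± 0.17, 95% interval 2.17 to 2.91, adjusted p = 8.41e-06). In astrocytes the 95% interval of the Ldha response was -0.30 to 0.18.

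Enzymes of successive steps were called in the same direction. The difference was 1.92 ± 0.18 for the hexokinase gene Hk1, 1.37 ± 0.14 for glucose phosphate isomerase Gpi and 1.63 ± 0.20 for the phosphofructokinase subunit Pfkl. It was 1.80 ± 0.21 for triose phosphate isomerase Tpi1, 1.71 ± 0.17 for phosphoglycerate mutase Pgam1, 1.95 ± 0.20 for enolase Eno1 and 1.17 ± 0.16 for pyruvate kinase Pkm. Pkm was the other member besides the lactate exporter gene Slc16a3 that rose in both cell types. Hk1 was at 36.8, 42.4 and 37.5 CPM in buffer-treated and 128, 139.9 and 115 CPM in ENV-treated microglia, and at 346, 369.8, 333 and 278 CPM with buffer and 317, 308, 360.2 and 321 CPM with ENV in astrocytes. Its microglial level after ENV thus stayed below that of every astrocyte library.

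Pdk1, the kinase that keeps pyruvate out of the mitochondria, was the member besides Slc2a1 that was called in opposite directions (microglia 1.18 ± 0.14, astrocytes -0.90 ± 0.12, adjusted p of the difference 4.00e-05). Pfkfb3, which makes an activator of phosphofructokinase, differed by 1.62 ± 0.37 and Slc16a3 by 2.70 ± 0.76 (adjusted p = 0.0321). Slc16a3 was not called when any of 7 single libraries was left out. Exceptions were the platelet phosphofructokinase Pfkp (-0.73, adjusted p = 0.0496), Pfkm (-0.20, 95% interval -1.13 to 0.73) and Hk2 (0.22, -0.82 to 1.25). The call of Pfkp was lost in 17 of the alternative settings. The list's count was 11 to 13 when each library was left out in turn.

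NADPH and antioxidant genes under NRF2 included 4 with a higher and 1 with a lower response in microglia among 17 tested (median 0.47), against 6.87% and 8.06% of all genes. The count was 3 without microglial buffer replicate 1 or 2, microglial ENV replicate 1, astrocyte buffer replicate 1 or 3, or astrocyte ENV replicate 3. The malic enzyme gene Me1 was at 12.2, 16.9 and 14.8 CPM with buffer and 69.98, 60.6 and 52.01 CPM with ENV in microglia. In astrocytes it was at 142, 141, 145 and 135 CPM with buffer and 117, 129.7, 108 and 91.8 CPM with ENV. The microglial groups were apart, those of astrocytes also did not overlap, and the difference was 2.58 ± 0.21 (adjusted p = 1.81e-05). The quinone reductase gene Nqo1 differed by 1.38 ± 0.42 (adjusted p = 0.0452), and the autophagy receptor gene Sqstm1 by -0.63. Their calls were lost in 13 and 4 of the alternative settings.

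**Figure D4:**
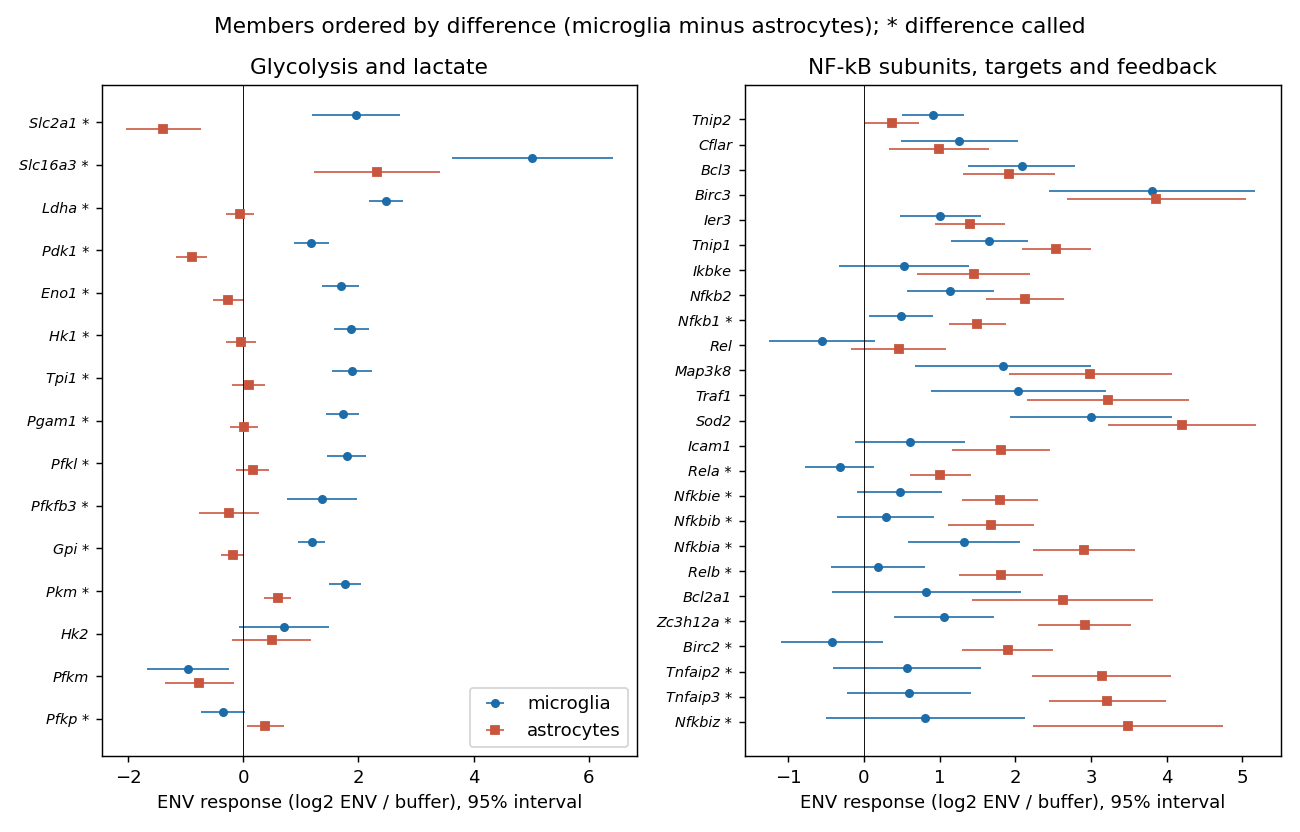
ENV responses (log2 ENV to buffer, with 95% intervals) of the tested members of 2 gene lists in microglia (blue circles) and astrocytes (red squares), ordered by their difference; asterisks mark called differences. Glycolytic genes such as Ldha lie to the right in microglia and near 0 in astrocytes, while NF-kB genes such as Tnfaip3 lie further right in astrocytes.

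NF-kB genes showed the reverse order. Of 25 tested members, 0 had a higher and 11 a lower response in microglia than in astrocytes (median difference -1.21). Over all genes the shares were 6.87% and 8.06%. In astrocytes 23 members rose (median 1.92) and in microglia 12 rose (median 0.83). The count of called differences was 7 without microglial ENV replicate 2 and 6 without microglial ENV replicate 3 or astrocyte buffer replicate 2. At an unadjusted p under 0.05, 16 were lower and 0 higher, and DESeq2 and limma-voom called 11 and 16 lower and 0 higher.

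The largest differences of the list were those of Nfkbiz and Tnfaip3. Tnfaip3, which encodes the ubiquitin-editing inhibitor A20, stood at 94.4, 96.5 and 59.3 CPM with buffer and 120.3, 103 and 112 CPM with ENV in microglia. In astrocytes it stood at 32.5, 31.1, 32.4 and 45.4 CPM with buffer and 261, 135, 342 and 581 CPM with ENV. The astrocyte groups did not overlap, with ENV replicate 2 the lowest, and the difference was -2.62 ± 0.51 (adjusted p = 0.00488). Nfkbiz, an atypical inhibitor family member, differed by -2.68 ± 0.82 (adjusted p = 0.0443) and Nfkbia, the classical inhibitor, by -1.59 ± 0.45 (adjusted p = 0.0312); leaving out single libraries took both above 0.05 in several cases. Nfkbib and Nfkbie, further inhibitors, differed by -1.39 and -1.33, and Nfkbib lost its call in 11 of the alternative settings. Among the subunits of NF-kB itself, Relb differed by -1.62, Rela by -1.33 and Nfkb1 by -1.003, and Rel (-1.01) and Nfkb2 (-0.99; adjusted p = 0.0131 with the block) were not called. The other called members were Tnfaip2 (-2.57), Birc2 (-2.32) and the mRNA-degrading enzyme gene Zc3h12a (-1.86). With the block, Bcl2a1 (adjusted p = 0.00380), Map3k8 (0.0248), Sod2 (0.0318) and Icam1 (0.0407) were also called as lower.

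Starting levels differed as well. Tnfaip3 averaged 83.4 CPM in buffer-treated microglia against 35.4 CPM in astrocytes, and with ENV 112 against 329.6 CPM. Birc3, an inhibitor of apoptosis, rose in both (difference -0.06, 95% interval -1.67 to 1.56). Levels set across cell types come from separately made gene tables and are less firm than the responses.

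Promoters of these genes were searched for a kappa-B motif. The letters GGGAA and CC with any 3 bases between them, on either strand and over 250 bases before to 50 after the start site, were found in 8 of 21 NF-kB list promoters (38.1%) and 8 of 15 chemokine promoters (53.3%). They were found in 2013 of all 33469 RefSeq promoters (6.01%) and in 0 of 15 glycolysis promoters. The interferon-stimulated response element, searched as GAAA, any 2 bases and GAAA, occurred in 22 of 35 promoters of interferon-stimulated genes (62.9%), against 1312 of all (3.92%), and in 0 of 15 glycolysis promoters. A match describes the letters and not a bound site, and the lists were partly built from known targets of these factors. The promoters of 2 genes with a larger response in astrocytes, Nfkbiz (chr11:58251471-58251770, plus strand) and Tnfaip3 (chr1:15543930-15544229, minus strand), and of 2 interferon-stimulated genes, Ifi44 (chr2:243303791-243304090, minus strand) and Irf7 (chr1:205799974-205800273, minus strand), are shown 5′ to 3′ from RefSeq, build GRCr8, with kappa-B or response-element matches in capitals (in Ifi44 and Irf7 as the reverse complement).
Nfkbiz: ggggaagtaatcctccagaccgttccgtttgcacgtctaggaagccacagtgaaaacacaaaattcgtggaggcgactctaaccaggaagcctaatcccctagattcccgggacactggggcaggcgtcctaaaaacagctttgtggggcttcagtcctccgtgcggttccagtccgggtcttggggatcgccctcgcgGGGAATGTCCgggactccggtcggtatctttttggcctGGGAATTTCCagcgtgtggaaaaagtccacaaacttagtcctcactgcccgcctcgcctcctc
Tnfaip3: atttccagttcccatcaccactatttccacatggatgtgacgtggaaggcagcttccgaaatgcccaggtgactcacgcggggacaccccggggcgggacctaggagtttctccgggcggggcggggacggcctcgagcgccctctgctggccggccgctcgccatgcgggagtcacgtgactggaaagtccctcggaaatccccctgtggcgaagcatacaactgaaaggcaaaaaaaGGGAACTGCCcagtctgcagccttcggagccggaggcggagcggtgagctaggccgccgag
Ifi44: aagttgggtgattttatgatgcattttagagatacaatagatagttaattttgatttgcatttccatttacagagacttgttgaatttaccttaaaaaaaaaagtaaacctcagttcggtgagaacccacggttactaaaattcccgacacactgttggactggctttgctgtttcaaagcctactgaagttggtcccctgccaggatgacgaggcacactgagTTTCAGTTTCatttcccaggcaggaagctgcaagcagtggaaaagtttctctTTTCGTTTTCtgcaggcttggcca
Irf7: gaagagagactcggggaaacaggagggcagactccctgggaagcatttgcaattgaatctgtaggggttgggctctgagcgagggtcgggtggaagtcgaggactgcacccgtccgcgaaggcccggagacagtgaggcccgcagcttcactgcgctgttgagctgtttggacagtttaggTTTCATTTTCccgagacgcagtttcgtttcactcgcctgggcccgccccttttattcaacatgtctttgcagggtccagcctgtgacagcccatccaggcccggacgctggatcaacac

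Il1a, Il1b and Ccl3 rose in both cell types, from a low start in astrocyte cultures. Il1b, the inflammasome-processed cytokine, stood at 178, 235 and 471 CPM with buffer and 2094, 3181 and 3368 CPM with ENV in microglia. In astrocyte cultures it stood at 4.37, 0.637, 1.76 and 3.17 CPM with buffer and 586, 60.4, 289 and 388 CPM with ENV. No ENV library overlapped with a buffer library in either cell type, and the response was smaller in microglia by -3.61 ± 0.95 on the log2 scale (adjusted p = 0.0235; not called without any of 4 single libraries). Levels in ENV-treated microglia were above those of all astrocyte libraries.

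Ccl3, a macrophage inflammatory chemokine, was at 189, 209 and 258 CPM with buffer and 589.6, 818 and 971 CPM with ENV in microglia. In astrocyte cultures it was at 1.17, 0.425, 1.25 and 2.38 CPM with buffer and 199.9, 24.2, 174 and 192 CPM with ENV. ENV replicate 2, with the lowest microglial marker sum, was also lowest for Ccl3, Il1a and Il1b. The difference was -4.79 ± 0.85 for Ccl3, -5.60 ± 0.84 for its relative Ccl4 and -4.56 ± 0.94 for Il1a (adjusted p = 0.00280, 0.00103 and 0.00637). With limma-voom, Il1a (adjusted p = 0.0525) and Il1b were not called.

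These genes are known from microglia, and the astrocyte cultures held microglial transcripts. The mean ENV level in astrocyte cultures was 11.5% of that in microglia for Il1b, 18.6% for Ccl3, 54.4% for Ccl4 and 75.5% for Il1a, against 2.33% for the microglial marker sum. The part of the microglia in these cultures in the responses was not tested. Without both libraries of astrocyte replicate 2, the called lists had 4 chemokines and 5 cytokines lower, against 4 and 4 with them.

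Over the lists, 20 tested chemokines had 0 higher and 4 lower differences (median -0.83, or -1.08 with genes at or under 3 counts in a group set to their bound). Over all genes the shares were 6.87% and 8.06%. Of the 20, 19 rose in astrocytes and 13 in microglia. The other 2 of the 4 were the membrane-bound chemokines Cx3cl1 (-3.62 ± 0.75) and Cxcl16 (-3.17 ± 0.39). With the block, Ccl7 was also called as lower (-1.90, adjusted p = 0.00434). Cxcl16 was at 251, 362 and 224 CPM with buffer and 366, 350.4 and 298 CPM with ENV in microglia, and at 55.2, 38.04, 53.2 and 101 CPM with buffer and 804, 588, 650.1 and 1002 CPM with ENV in astrocytes. Its groups overlapped in microglia and were apart in astrocytes.

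Cytokines gave 1 higher (6.87% over all genes) and 4 lower (8.06%) differences among 24 (median -1.70, or -1.75 at the bound), and 2 higher and 9 lower with the block. The count was 3 without microglial buffer replicate 1, 2 or 3, microglial ENV replicate 1 or 2 or astrocyte buffer replicate 3, and 8 without astrocyte ENV replicate 2. The higher one was the death ligand gene Tnfsf10 (4.35 ± 1.22, adjusted p = 0.0307), a call lost in 8 settings. Besides Il1a, Il1b and Csf1 the costimulatory ligand Tnfsf9 was lower (-1.71), a call lost in 16 settings. Acute-phase genes gave 1 higher (Lcn2) and 2 lower differences among 11 (median -0.78, or -0.95 at the bound).

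Interferon-stimulated genes rose in both cell types, and the share with a called difference was near that of all genes. Of 44 tested, 43 rose in microglia (median 3.01) and 42 in astrocytes (median 2.44). The difference was called for 7 of the 44 (14.9% over all genes), 5 higher and 2 lower (median 0.62), 10 and 3 with the block; the count was 3 without microglial buffer replicate 1 or ENV replicate 3, 4 without astrocyte buffer replicate 1 and 14 without microglial buffer replicate 3. Usp18, the protease that removes ISG15 and dampens interferon signalling, was at 4.30, 4.76 and 10.6 CPM with buffer and 497, 287 and 315 CPM with ENV in microglia. In astrocytes it was at 18.4, 31.2, 18.6 and 20.7 CPM with buffer and 210.4, 167, 144 and 84.2 CPM with ENV. The groups were apart in both, and microglia exceeded astrocytes in the response by 3.22 ± 0.55 (adjusted p = 0.00233). The antiviral GTPase gene Mx2 differed by 2.24 ± 0.69 (adjusted p = 0.0464) and lost its call in 16 of the alternative settings. Sp100 (-1.59 ± 0.35) and the transcription factor gene Irf1 (-1.11 ± 0.34, adjusted p = 0.0438) rose more in astrocytes, but Irf1 lost its call in 13 settings, DESeq2 size factors among them.

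Antigen presentation followed in part. MHC class I genes rose in 13 of 14 tested in each cell type, with 1 higher and 1 lower difference (median 0.08): B2m, the invariant light chain, rose more in astrocytes (-1.02 ± 0.28, adjusted p = 0.0271), and Tapbp was near the floor in astrocytes (at most 0.0652 CPM, against 253 CPM in ENV-treated microglia) and was not called with the block (adjusted p = 0.0565). The count of 2 among 14 (14.9% over all genes) fell when any of 10 single libraries was left out. It was 0 without microglial buffer replicate 1 or astrocyte buffer replicate 1 or 2. Class II and costimulatory genes gave 1 called difference among 13 (median -1.90, or -2.09 at the bound), 3 with the block and 2 without microglial ENV replicate 1, microglial buffer replicate 3, astrocyte ENV replicate 1 or astrocyte buffer replicate 2. Cd74, the invariant chain of class II, was at 4.30, 1.58 and 4.85 CPM with buffer and 20.6, 11.2 and 6.66 CPM with ENV in microglia. In astrocyte cultures it was at 0.792, 0.708, 0.665 and 3.99 CPM with buffer and 97.1, 71.3, 175 and 348 CPM with ENV. The ENV libraries of astrocytes were all above those of microglia (difference -4.77 ± 1.04, adjusted p = 0.00863).

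**Figure D5:**
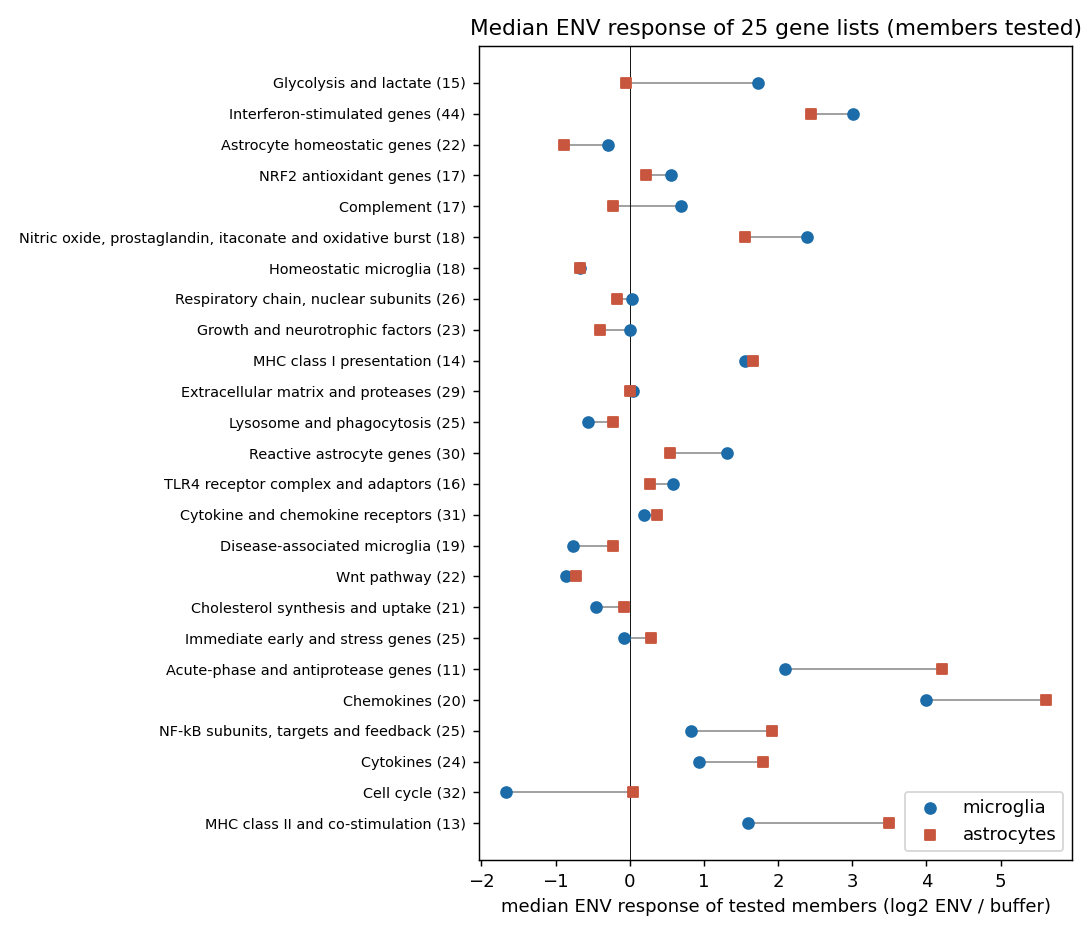
Median log2 ratio of ENV to buffer over the tested members of 25 gene lists (number of members in brackets), in microglia (blue circles) and astrocytes (red squares), ordered by the median difference per gene. The glycolysis list is uppermost (medians 1.72 and -0.04), and interferon-stimulated genes are high in both (3.01 and 2.44).

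Genes that rose in both cell types but more in microglia were led by Upp1, a uridine phosphorylase. It was at 0, 0.105 and 0.0674 CPM with buffer and 28.3, 39.2 and 102 CPM with ENV in microglia, and at 9.27, 7.57, 13.1 and 31.02 CPM with buffer and 70.4, 36.6, 78.9 and 113 CPM with ENV in astrocytes. Groups were apart in both (difference 7.67 ± 1.13, adjusted p = 0.000826). Its level in buffer-treated microglia lay at or under the detection limit, so the size of the difference rests on few counts. With ENV its levels overlapped between the cell types. Lcn2, the siderophore-binding lipocalin, went from 0.377, 0.385 and 0.269 to 1416, 1255 and 779 CPM in microglia and from 6.92, 4.35, 7.67 and 52.2 to 745, 356, 976 and 1844 CPM in astrocytes. The ENV levels overlapped between cell types and the starting levels did not (difference 6.06 ± 1.24, adjusted p = 0.00627). Socs3, the feedback inhibitor of cytokine receptors, likewise rose more in microglia (3.90 ± 0.56, from a mean of 3.94 CPM against 71.3 CPM), as did the thyrotropin receptor gene Tshr (5.23 ± 0.61) and the exchange factor gene Arhgef3 (3.54 ± 0.37).

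Genes that fell in both but more in microglia included Rasgrp3, a Ras activator, with means of 356 and 6.22 CPM in microglia and 9.31 and 4.77 CPM in astrocytes (difference -4.69 ± 0.39, adjusted p = 2.39e-05), and the scaffold gene Card14 (-3.57 ± 0.56). Cd69, an early activation receptor, had 1 count over the 4 buffer-treated astrocyte libraries and 1411 with ENV, a ratio of 1390 (95% counting interval 249 to 54922). In microglia its means were 1.43 and 6.02 CPM.

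Several large differences belonged to genes whose response was called in 1 cell type only. Fgl2, a secreted prothrombinase-like protein of macrophages, was at 15.01, 13.4 and 18.1 CPM with buffer and 711, 550.2 and 547 CPM with ENV in microglia. In astrocytes it was at 35.3, 25.4, 32.8 and 57.6 CPM with buffer and 57.02, 18.5, 63.5 and 73.7 CPM with ENV, groups that overlapped (difference 4.95 ± 0.56, adjusted p = 0.000159). Mefv, the pyrin inflammasome sensor, differed by 6.26 ± 0.89 and the guanine deaminase gene Gda by 5.61 ± 0.64. The syntrophin gene Sntb1 differed by 6.04 ± 0.47 and the adenosine receptor gene Adora2a by 4.90 ± 0.81. The rise of each of these genes was called in microglia alone. Cd22, a lectin of microglia and B cells, was called through its fall in astrocyte cultures (means 3.86 and 0.126 CPM), where the microglial marker mean was 691 CPM with buffer and 357 CPM with ENV; the part of those cells was not tested.

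In the other direction, Cd83, a maturation marker of antigen-presenting cells, was at 194, 164 and 176 CPM with buffer and 47.8, 62.2 and 32.1 CPM with ENV in microglia. In astrocyte cultures it was at 8.03, 1.45, 3.99 and 14.97 CPM with buffer and 180.4, 53.5, 167 and 339.6 CPM with ENV. The groups were apart in both, although the microglial response (-1.75 ± 0.67, adjusted p = 0.0679) was not called, and the difference was -6.46 ± 0.96 (adjusted p = 0.000959). Its mean level with ENV was 391% of that in microglia. Enpp2, which encodes the lysophosphatidic acid-producing enzyme autotaxin, rose in astrocytes from 8.47, 2.83, 7.35 and 12 to 159, 66.01, 320.4 and 363 CPM (difference -5.59 ± 0.75). The rise of the phosphodiesterase gene Pde2a (-5.80 ± 0.91) was also called in astrocytes alone. The falls of Aebp1 (-4.85 ± 0.72) and Tox2 (-5.26 ± 1.14) were called in microglia alone.

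Genes of the microglial state fell in microglia in part. Of 18 tested homeostatic genes, 7 fell and 1 rose in microglia and 7 fell in astrocyte cultures. The difference was higher for 2 and lower for 4 (6 and 5 with the block), against 6.87% and 8.06% of all genes. Pros1, a ligand of phagocytic receptors, differed by -2.08, and the receptor Mertk, which it can engage, by 2.01 ± 0.46. The purine receptor P2ry13 (3.42) was higher through its fall in the astrocyte cultures, beside the lower microglial marker sum there.

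Lysosomal genes gave 3 higher and 8 lower differences among 25 tested, against 6.87% and 8.06% of all genes. Of the 25, 11 fell and 5 rose in microglia and 5 fell in astrocytes. The lysosomal enzyme gene Hexa differed by -1.53 ± 0.15 and the protease gene Ctsl by 0.88. Disease-associated microglial genes gave 1 higher and 6 lower differences among 19, led by Spp1 and Csf1 (median -0.40). Of the 19, 10 fell in microglia and 6 in astrocytes, against 15.9% and 9.61% of all genes.

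Proliferation genes fell in microglia and varied between the astrocyte libraries. Of 32 tested cell cycle genes, 19 fell in microglia (median -1.68), against 15.9% of all genes. In astrocytes edgeR called 0 in either direction (median 0.04), as did DESeq2 and limma-voom, and 0 had an unadjusted p under 0.05. Summed over the list, astrocyte levels were 4765, 4175, 3357 and 3257 CPM with buffer and 5817, 6119, 2979 and 1355 CPM with ENV (replicates 1 to 4), so that ENV replicate 4 was lowest and ENV replicates 1 and 2 were highest. The difference was called as lower for 4 of 32 (8.06% over all genes; median -1.70), for 12 with the block, for 25 without astrocyte ENV replicate 4, for 1 without astrocyte ENV replicate 3 and for 0 without any single one of the others except microglial ENV replicate 3. The ubiquitin-conjugating enzyme gene Ube2c (-2.73 ± 0.84, adjusted p = 0.0469) and the checkpoint kinase gene Bub1 (-2.36 ± 0.73, adjusted p = 0.0464) were the largest. Cholesterol synthesis genes gave 0 higher and 3 lower differences among 21 (median -0.44), against 6.87% and 8.06% of all genes. Of the 21, 9 fell in microglia and 1 in astrocytes, against 15.9% and 9.61% of all genes. The squalene epoxidase gene Sqle differed by -0.94 ± 0.23 (adjusted p = 0.0183). The count of differences was 7 with the block and 0 without both libraries of astrocyte replicate 2. It was 1 without microglial ENV replicate 1, microglial buffer replicate 2, astrocyte buffer replicate 1, 2 or 3, or astrocyte ENV replicate 2 or 4.

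Astrocyte homeostatic genes fell in astrocytes. Of 22 tested, 12 fell and 1 rose there, against 2 and 1 in microglia. The difference was higher for 3 and lower for 0 (7 and 0 with the block), against 6.87% and 8.06% of all genes. Gfap, the intermediate filament of astrocytes and a reactive marker, was at 5129.6, 5590.1, 5695 and 6432 CPM with buffer and 1392, 2341, 1903 and 2610.3 CPM with ENV in astrocytes, groups that did not overlap. In microglia it was at 18.6, 22.7 and 39.6 CPM with buffer and 17.4, 42.04 and 118 CPM with ENV, which overlapped (difference 2.75 ± 0.69, adjusted p = 0.0182; 0.053 without microglial buffer replicate 1 or 2). Glul differed by 1.87 ± 0.55 (adjusted p = 0.0382) and lost its call in 11 settings. Ntsr2, a neurotensin receptor of astrocytes, fell in them from a mean of 2.54 to 0.110 CPM and was at most 0.0800 CPM in microglia. Reactive astrocyte genes gave 5 higher and 1 lower difference among 30 (8 and 6 with the block, 3 in all without microglial buffer replicate 1). The lower one was the protease inhibitor Timp1 (-0.78), a call lost in 14 settings.

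Matrix and protease genes gave 4 higher and 4 lower differences among 29, against 6.87% and 8.06% of all genes. The list had 4 in all without microglial buffer replicate 1 and 5 without microglial ENV replicate 1 or buffer replicate 2. The membrane metalloprotease gene Mmp14 rose in microglia (3.86 ± 0.42, adjusted p = 0.000116). Its inhibitor Timp3 differed by 2.98 ± 0.67 through a fall in astrocyte cultures, from a mean of 344 to 59.2 CPM, beside the lower fibroblast marker sum there. The collagen-binding protein gene Sparc fell more in microglia (-2.19 ± 0.30), and the basement membrane collagen Col4a1 rose in astrocytes (-1.35). The call of the Col4a1 difference was lost in 14 settings.

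Over all genes the difference was called as higher for 6.87% and lower for 8.06%, the shares to set beside each count without the block in this paragraph. Counts with the block stand beside 1547 genes called as higher and 1767 as lower with the block, of 13382 tested. Complement genes gave 2 higher and 2 lower differences among 17 (7 and 5 with the block). The response of the protease gene C1r (3.53 ± 0.57) and of properdin, Cfp (3.37; 1.24 in microglia and -2.12 in astrocyte cultures, where the microglial marker mean was 691 CPM with buffer and 357 CPM with ENV), was higher in microglia, and that of factor B, Cfb (-2.15 ± 0.50), and C4a (-1.23) in astrocytes. The part of microglia in the astrocyte cultures in the value of Cfp was not tested. Receptors for cytokines and chemokines gave 4 higher and 4 lower among 31 (8 and 5 with the block; 4 calls without microglial ENV replicate 1 or 3 or astrocyte buffer replicate 3, and 5 without microglial buffer replicate 2): Il18rap (4.64 ± 0.86) was among the higher, and the interferon-gamma receptor Ifngr1 (-2.19 ± 0.34) and the shared interleukin-6 receptor chain Il6st (-2.08 ± 0.29) among the lower. Growth factor genes gave 2 and 2 among 23 (4 and 5 with the block), with Fgf2 (2.42) and Vegfa (1.97) higher and Hgf (-2.62) lower. Immediate early genes gave 2 and 3 among 25 (4 and 7 with the block), with Jun at 0.86, the chaperone gene Hspa5 at 0.80, Myc at -1.94 and Gadd45a at -1.06. The calls of Jun and Hspa5 were lost in 13 and 16 settings. With library totals alone 0 immediate early genes were higher and 4 lower, and leaving out any of 7 single libraries took the count to 3 or fewer. Wnt pathway genes gave 0 and 3 among 22 (4 and 3 with the block; 5 calls without microglial ENV replicate 1 or astrocyte ENV replicate 2 and 6 without microglial buffer replicate 3), with the Wnt antagonist Sfrp2 at -4.68 and the transcription factor Lef1 at -2.72.

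Among 16 tested genes of the TLR4 receptor complex and its adaptors, 1 difference was called (the adaptor Tirap, 0.78; 14.9% over all genes), 4 with the block and 2 without astrocyte buffer replicate 1 or ENV replicate 2. Tlr4 itself differed by -0.26 ± 0.57 (95% interval -1.49 to 0.97) and its coreceptor Cd14 by -0.60 ± 0.87 (-2.49 to 1.28), with means for Tlr4 of 66.9 and 39.1 CPM in microglia and 4.10 and 3.27 CPM in astrocyte cultures.

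The remaining genes given whatever their result were not called for the difference. Tnf differed by -2.32 ± 0.78 (95% interval -4.01 to -0.63, adjusted p = 0.0644; 0.00347 with the block); its response was 0.93 in microglia (adjusted p = 0.247) and 3.24 in astrocyte cultures (adjusted p = 0.00174). Cxcl10 differed by 2.90 ± 1.05 (adjusted p = 0.0811) and Irf7 by 1.64 ± 0.62 (adjusted p = 0.0964; 0.0390 with the block). The prostaglandin synthase gene Ptgs2 differed by 3.42 ± 1.29 (adjusted p = 0.0947; 0.00433 with the block), complement C3 by -1.54 ± 0.76 (0.197; 0.0119 with the block) and P2ry12 by 1.67 ± 0.81 (0.187; 0.0134 with the block).

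Intervals were wide for the rest. The chemokines Ccl2 and Cxcl1 differed by -0.53 (95% interval -1.93 to 0.88) and 0.56 (-1.57 to 2.68), the growth factor Igf1 by 0.12 (-1.64 to 1.88) and the lipid receptor Trem2 by 0.21 (-1.83 to 2.24). Nos2, which makes nitric oxide in activated macrophages, went from near the detection limit to 196, 171 and 76.9 CPM in microglia and 259, 7.11, 29.9 and 55.1 CPM in astrocytes, with a difference of -0.55 (-6.86 to 5.75). Of the list for nitric oxide, prostaglandin, itaconate and oxidative burst, 1 of 18 was called (14.9% over all genes). With the block 8 were called (7 higher, 1 lower), beside 3314 of all 13382 genes. The 1 called without the block was the oxidase subunit Cybb (3.01 ± 0.86, adjusted p = 0.0333). Cybb was not called when any of 10 single libraries was left out.

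For genes with 3 counts or fewer in a buffer group, counting sets the limit. Ccl5 had 1 count in buffer-treated microglia and 1284 with ENV, a ratio of 1227 (95% counting interval 219.9 to 48518). Il6 had 3 and 731 in microglia (ratio 233, 79.4 to 1132). Csf3 had 3 and 582 in microglia (185, 63.1 to 902) and 3 and 4721 in astrocytes (1550, 530.0 to 7517). Il10 had 0 counts in buffer-treated astrocytes and 106 with ENV, at least 34.8-fold more when set against 3 counts over the group; its difference was not called (adjusted p = 0.0635; 0.0400 with the block). Arg1 had 2 and 47 counts in microglia (22.5, 5.88 to 191). The differences of Ccl5, Il6, Csf3 and Arg1 were not called.

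Some genes had group means under 0.1 CPM in 1 cell type, with few or no counts there, and entered the comparison through the other. In microglia, Mcemp1 and Dsg3 had 0 counts with buffer and with ENV were higher by at least 50.3-fold and 38.2-fold, and Scel, with 48 and 0 counts, was at least 16.7-fold lower. Among those under 0.1 CPM in microglia, Orm1, the acute-phase orosomucoid, had 1 count with buffer and 6052 with ENV in astrocytes (ratio 5960, 1069 to 235442). The secreted phospholipase Pla2g2a had 3 and 1741 (572, 195 to 2774) and the potassium channel gene Kcnj8 had 1 and 240 (236, 42.0 to 9374). The differences of Orm1, Pla2g2a and Kcnj8 were not called.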

How the data were processed

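Messenger RNA libraries were analysed from gene tables that the authors deposited as counts, whole numbers per gene symbol and not normalized. The submitters' processing notes list the tools HISAT2 and StringTie 1.3.3b, with mRatBN7.2 as genome build. Tool settings, annotation and strand are not given in the sources. Reads shared by paralogs or overlapping genes could not be separated. Tables of both cell types were joined by symbol alone. Of 13382 tested symbols, 13087 matched a RefSeq symbol and 105 a synonym.

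All 14 libraries entered 1 fit with edgeR 4.0.16 (limma 3.58.1, R 4.3.3): TMM, filterByExpr, robust quasi-likelihood F tests, 2-sided, Benjamini-Hochberg adjustment over all tested genes, called at an adjusted p under 0.05. Standard errors and 95% intervals were not given where a group had 3 counts or fewer. The common biological coefficient of variation was 26.2%, and the fit was tested on simulated data. Deviations of libraries with the same replicate number correlated within each cell type (r of 0.29, 0.39 and 0.39 in microglia and 0.47, 0.61, 0.26 and 0.54 in astrocytes). A fit with that number as a block is therefore given where it changed the call of a gene picked by the naming rule, and for several lists. Alternatives with DESeq2 1.42.0, limma-voom, glmTreat and other scales and filters, and without each library, are in the closing section.

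Members and gene lists were chosen with earlier results of these data known. Named genes were a panel given whatever its result, the 6 largest called differences in each direction by class (at least 10 CPM in a group and 1 CPM in both cell types, groups apart in the cell type of larger response), up to 4 per list and the 4 largest responses of genes under 0.1 CPM in the other cell type; members of the glycolysis and NF-kB lists, and a few others, were added after their values were seen. Lists are described by counts and medians without a set test. Promoters were those of RefSeq, build GRCr8. Some results are not reported here.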

Additional observations from a re-analysis of the deposited data

Results flagged for a closer look

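The interaction test called 1998 genes whose ENV response differed between microglia and astrocytes. Those named in opposite directions differed, microglia minus astrocytes on the log2 scale, by 5.47 (Fam124a), 5.00 (S100a6), 4.67 (Scg2), 3.50 (Ipcef1), 3.35 (Slc2a1), 3.21 (Cd109), -6.44 (Dhrs9), -4.08 (Spp1), -4.07 (Nrep), -3.76 (Csf1), -3.37 (Abcb4) and -3.31 (Gdf15).

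Among 128 groups of 4 astrocyte libraries checked for a sample far from the others, 12 had one; chance gives about 1 in 20. In 7 of the 12 it was replicate 2. In ENV-treated astrocytes, replicate 2 was lowest for Tnf (5.31 CPM, others 32.9 to 47.2), Il6 (4.47 CPM, others 29.9 to 41), Ccl5 (354 CPM, others 854 to 963), Ccl3 (24.2 CPM, others 174 to 199.9) and Il1a (24.3 CPM, others 205 to 310.1). In buffer-treated astrocytes it was lowest for Trem2 (1.56 CPM, others 11.03 to 15.9) and Cd22 (0.425 CPM, others 4.22 to 6.06). The same replicate had the lowest microglial marker sums, and the part of these in the values was not tested. Buffer replicate 4 was highest for Cxcl10 (41.6 CPM, others 10.48 to 11.7) and ENV replicate 1 for Arg1 (5.71 CPM, others 0.171 to 0.293). Near the detection limit were Mcemp1 (0.142 CPM in ENV replicate 1), Dsg3 (0.0650 CPM in ENV replicate 3) and Ces1d (0.226 CPM in buffer replicate 4), each listed at 0 in the other 3.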

How the results depend on the processing

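Across 25 alternative settings, 51 of the 99 called genes picked by the naming rule kept their call throughout, 48 lost it in at least 1, and 0 reversed. Of 21 further called members of the glycolysis, NF-kB, chemokine and cytokine lists, 10 kept it, 11 lost it in at least 1 and 0 reversed. The 1998 differences became 3371 with limma-voom, 3314 with the replicate block and 281 when tested against a 2-fold difference with glmTreat, and ranged from 1418 to 2287 over single libraries left out. Without both libraries of astrocyte replicate 2, a setting chosen after seeing the data, they were 1620. With glmTreat the responses numbered 642 in microglia and 428 in astrocytes, and with the block 4001 in astrocytes; over single libraries left out they ranged from 2700 to 4221 (against 4005) and from 1710 to 3072 (against 2540). The 155 genes of opposite direction became 256 with the DESeq2 Wald test, 313 with limma-voom, 2 with glmTreat, 368 with the block and 73 with all 28 libraries, and ranged from 89 to 203 over single libraries left out. The replicate block ended no call among these 21, and among the genes picked by the naming rule it changed no call other than those given with the results. Among genes not called, Ccl5 turned from -0.0020 to 0.056 with DESeq2 size factors, 0.28 with the DESeq2 Wald test and 0.035 without both libraries of astrocyte replicate 2; Cxcl1 turned to -0.35 with limma-voom; Igf1 turned to -0.052 with library totals alone and -0.72 with limma-voom. Over single libraries left out the difference ranged from -0.54 to 3.23 for Arg1, from -1.07 to 2.09 for Ccl5, from -0.56 to 0.90 for Cxcl1, from -0.28 to 0.53 for Igf1, from -1.22 to 0.93 for Nos2, from -0.49 to 0.075 for Tlr4 and from -0.10 to 0.83 for Trem2. The ENV to buffer ratio of marker sums ranged from 0.88 to 1.01 for microglia and macrophages in microglia, from 0.91 to 1.10 for oligodendrocyte lineage in astrocytes, from 0.84 to 1.01 for ependymal cells and choroid plexus in microglia. The causes were not tested. Depth allowed up to 0.117 CPM at a count of 0, and of the 11384 genes not called, 5304 had a 95% interval within 1 log2 unit of 0.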
